A study of Mus musculus with 24 samples.

Results

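STAU2 is a double-stranded RNA-binding protein that travels with messenger RNAs in neural progenitors and neurons, and it is known for carrying transcripts to one daughter cell when cortical progenitors divide. RNA bound to STAU2 was immunoprecipitated (RIP) from the brain cortex of C57BL/6 mouse embryos at 4 ages (E11.5 and E13.5, then E15.5 and E17.5), with 3 libraries at each stage and the same anti-STAU2 antibody throughout. Libraries are numbered as replicates in the labels, which name no animal or litter for them. The labels name no allele or treatment that separates the groups, which are defined by embryonic age. Batch or litter cannot be told apart from stage. The labels list 24 samples, of which the 12 immunoprecipitations were used and the inputs were not analysed here. The comparison set the 6 libraries of the middle stages (E13.5 and E15.5) against the 3 libraries of E11.5 and the 3 libraries of E17.5, to find RNAs whose STAU2-bound level was higher, or lower, in the middle than at both ends. The deposited table lists 18975 rows, each a merged peak on 1 strand, with a gene and a location in it where these were assigned. The 14292 rows with a gene symbol and a location other than intergenic (7967 genes) were taken, and 14101 of them (7870 genes) passed the filter on low counts and were tested.

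The cortex is built from radial glia, the dividing stem cells that line the ventricle, which Notch signalling holds in the progenitor state. Radial glia give rise to intermediate progenitors, marked by Eomes, and these divide into the glutamatergic neurons that migrate outward to form the layers. E11.5 lies near the start of this process, E13.5 and E15.5 lie within it, and by E17.5 most layer neurons have been born and gliogenesis is beginning.

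A row was called peaked when its level in the middle stages was above that at E11.5 and above that at E17.5, each with a Benjamini-Hochberg adjusted p under 0.05 in edgeR's quasi-likelihood test, and dipping when it was below both. Levels are CPM, a library's count divided by its scaled total, after TMM scaling, and changes are log2 differences of the middle stages minus the named end stage. There were 203 peaked rows in 154 genes, which is 1.44% of the rows tested, and 76 dipping rows in 68 genes, which is 0.539%. Peaked rows included intermediate progenitor and proneural genes (Eomes, Neurod1, Neurog1, Nhlh1, Gadd45g), the receptors Notch1 and Notch2, and axon guidance genes (Dcc, Epha4). Dipping rows included Mkx, Fblim1, Olig2 and all 3 rows of Dlx2.

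Short stretches of some of these RNAs are shown as a description, and STAU2 binding to them was not tested. STAU2 binds base-paired RNA, so the arms of the longest helix that RNAfold predicted in the 300 bases centred on the row are printed for the peaked rows of Nxph4 and Nfia and the dipping rows of Dlx2 and Olig2, all in 3' UTRs. Capitals mark the paired bases, 5′ to 3′ on the strand of the gene, read from GENCODE vM21 transcripts on GRCm38 (mm10).
Nxph4 first arm, window chr10:127525644-127525943 (minus strand): atAGCCCCACga
Nxph4 second arm: agGTGGGGCTtg
Nfia first arm, window chr4:98111549-98111848 (plus strand): ttTTTTTTTTCTGta
Nfia second arm: atTAGGGAAAAAAtg
Dlx2 first arm, window chr2:71543590-71543889 (minus strand): atGTTAAAAAAAaa
Dlx2 second arm: gaTTTTTTTAATat
Olig2 first arm, window chr16:91228223-91228522 (plus strand): atCAAAAAGTTgc
Olig2 second arm: tgAGCTTTTTGgg
The helices hold 8 base pairs in Nxph4, 11 in Nfia, 10 in Dlx2 and 9 in Olig2, against a median of 9 over all windows read, and 5, 8, 6 and 17 bases lie between their arms. The motif TGTANATA, the letters that Pumilio repressor proteins recognise, was searched on the gene's strand alone, since the target is RNA. Not every named row was searched, so a named row that is not listed here is not shown to lack the motif. Among the named rows searched, TGTANATA was found in the windows of Dll3 (peaked), Dlx2 and Olig2 (dipping) and Tbr1 (in neither class). These are shown with the motif in capitals.
Dll3, motif at chr7:28293783-28293790 (minus strand): aagggctttatTGTACATAttgcttattta
Dlx2, motif at chr2:71543723-71543730 (minus strand): gatgcagagttTGTAAATAagggtgtctgt
Olig2, motif at chr16:91228312-91228319 (plus strand): tttcttgtgtgTGTAAATAtaatatcaacg
Tbr1, motif at chr2:61812990-61812997 (plus strand): tgtgaaatgatTGTATATAgtgttaattta
Of all 3' UTR windows read, 6.81% hold TGTANATA (288 of 4228), against 5 of 75 in peaked and 4 of 29 in dipping 3' UTR windows. A window could be read only where it lay inside 1 exon, which held for 40.0% of the tested rows, 52.2% of peaked rows and 43.4% of dipping rows. A comparison of base composition, folding energy or motifs between the classes is therefore void, and the sequences are given as a description.

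Against both ends together, 878 rows were higher in the middle stages (6.23%) and 418 were lower (2.96%). Against E11.5 alone, 2173 rows were higher (15.4%) and 2208 lower (15.7%), and against E17.5 alone, 2038 were higher (14.5%) and 2022 lower (14.3%). Most rows that passed against one end did not pass in the same direction against the other, as the scatter of the 2 changes shows. E17.5 differed from E11.5 at 7321 rows (51.9%), and E15.5 differed from E13.5 at 45 rows (0.319%), 6 higher and 39 lower. All 6 middle libraries lay above all 6 end libraries at 196 rows (1.39%) and below them at 64 rows (0.454%). The 2 contrasts that define the classes share the middle libraries, so their agreement in sign is no independent repeat. Of the 203 peaked rows, 151 had no overlap between middle and end libraries, and of the 76 dipping rows, 41 had none. The first 15 genes named in each direction were taken only from rows without overlap. For those rows its absence is a condition of their choice and no further support.

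**Figure D1:**
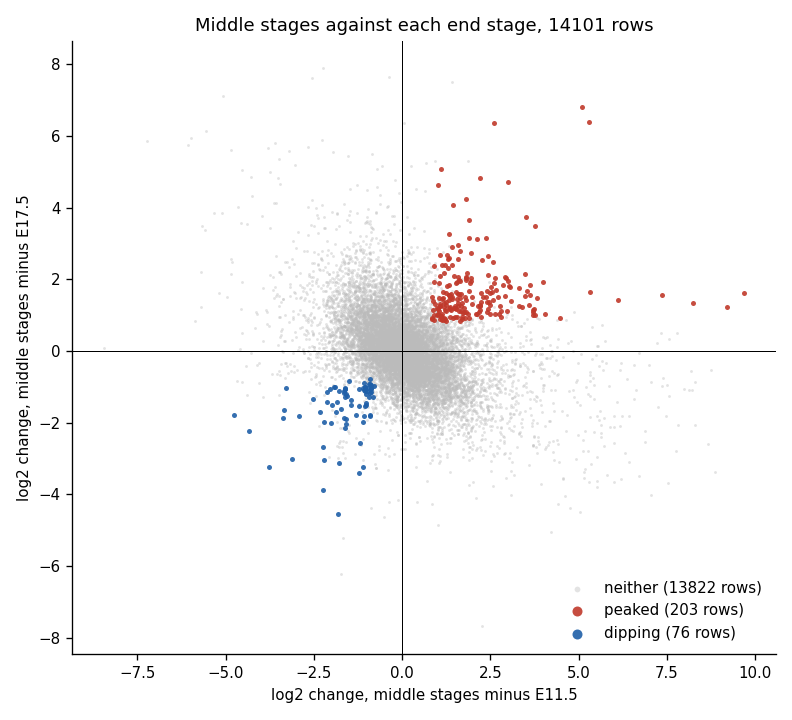
Each point is 1 of 14101 rows, with its log2 change from E11.5 to the middle stages on the horizontal axis and from E17.5 to the middle stages on the vertical axis. The 203 peaked rows (red) fill the upper right and the 76 dipping rows (blue) the lower left, and rows in neither class are grey.

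The E11.5 libraries stood apart from the rest. Their TMM factors were 0.49 to 0.604, against 1.152 to 1.409 in the other 9 libraries, and the 10 highest rows took 55.57% to 64.16% of their gene-row counts, against 21.72% to 31.98% elsewhere. Rows called intron held 56.29% to 64.01% of the counts at E11.5 and 22.61% to 34.06% at the other stages. Scaling by library totals in place of TMM moved the median change of all rows from 0.03 to 0.70 (gene rows) or 0.84 (every peak) in the middle minus both ends. Under those scalings 1004 and 1479 rows were peaked and 9 and 5 were dipping. All 203 peaked rows were among the 1004 and the 1479, while 9 and 5 of the 76 dipping rows kept their call. Those scalings moved the median change of all rows from 0.04 to 1.3 and 1.33 against E11.5. Against E17.5 they moved it from 0.01 to 0.09 and 0.35. Both shifts favour peaked calls and work against dipping calls, so the kept peaked calls are no sign of stability. The splits of higher to lower rows became 6597 to 113 and 8573 to 87 against both ends, 9474 to 342 and 9539 to 322 against E11.5, and 2235 to 1734 and 3140 to 1095 against E17.5. They became 7814 to 1301 and 6842 to 1608 between E17.5 and E11.5, where TMM gave 3646 to 3675, and 9 to 27 both times between E15.5 and E13.5. Changes below are relative to the TMM scale. In these bulk samples fewer cells of a type and less RNA per cell cannot be told apart, and without the inputs a change in an RNA's amount cannot be told apart from a change in its binding.

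Intermediate progenitor and proneural genes held the largest share of peaked members among the lists with more than 2 genes tested. Of 18 genes listed, 10 had a tested row, and by their highest row 6 were peaked (Dll3, Eomes, Gadd45g, Neurod1, Neurog1 and Nhlh1) and none dipped, against 122 of all 7870 genes peaked (1.55%) and 47 dipping (0.597%). The median change of the list against both ends was 1.38, against 0.03 over all genes. Eomes (Tbr2) is the transcription factor that defines intermediate progenitors, and its 3' UTR row at chr9:118485096-118485240 measured 63.4, 45.2 and 45.9 CPM at E11.5, 120, 147 and 93.1 at E13.5, 122, 76 and 138 at E15.5, and 40.1, 40 and 44.7 at E17.5. Every middle library lay above every end library, by 2.25-fold against E11.5 (log2 1.17 ± 0.32 SE, adjusted p = 0.00675) and 2.78-fold against E17.5 (log2 1.48 ± 0.32 SE, adjusted p = 0.00137). The other row of Eomes, in an exon, was peaked as well, at means of 5.25, 15, 16.6 and 6.59 CPM from E11.5 to E17.5.

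Neurod1 is a proneural factor that follows Eomes as neurons form, and its exon row at chr2:79454694-79454838 measured 11.8, 9.88 and 10.5 CPM at E11.5, 55.1, 65.2 and 27.6 at E13.5, 47.4, 58.9 and 50.6 at E15.5, and 13.1, 19.7 and 16.4 at E17.5. The groups did not overlap, and the change was 2.24 ± 0.35 (SE) against E11.5 (adjusted p = 4.93e-05) and 1.63 ± 0.33 against E17.5 (adjusted p = 0.000856). Nhlh1, a basic helix-loop-helix factor of newly born neurons, measured 17.7, 57 and 39.5 CPM at E11.5, 179, 93.7 and 120 at E13.5, 135, 253 and 62.1 at E15.5, and 7.22, 13.6 and 12.7 at E17.5 in its 3' UTR row (chr1:172052217-172052621). Its fall to E17.5 was the steeper side (log2 3.65 ± 0.49 SE, against 1.89 ± 0.44 from E11.5), and E17.5 lay below E11.5 (log2 -1.76, adjusted p = 0.00457). Gadd45g, a stress-response gene switched on in cells leaving the cycle, had the opposite skew at chr13:51848118-51848522. It measured 17.7, 13.7 and 19.5 CPM at E11.5, 97, 75.5 and 109 at E13.5, 114, 81.1 and 89.2 at E15.5, and 40.7, 34.4 and 34.1 at E17.5, so that E17.5 stayed above E11.5 (log2 1.1, adjusted p = 0.0104).

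Neurog1, a proneural factor upstream of Neurod1, was peaked in both of its rows, with means of 18.7, 40.6, 40.1 and 1.19 CPM from E11.5 to E17.5 in the higher one. The 4 listed genes that did not pass moved otherwise. Hes6 had means of 8.41, 20.8, 21.4 and 20.5 CPM and passed against E11.5 alone, and Kif26b had 2.29, 3.37, 4.02 and 10.9 CPM and was lower than at E17.5. Mfng, a glycosyltransferase that modifies Notch, had 59.9, 78.9, 43.2 and 17.2 CPM, and Elavl4, a neuronal RNA-binding protein, had 25.4, 38.6, 34.3 and 18.8 CPM, and both passed against E17.5 alone. Neurog2, Dll1 and Bcl11b were not analysed here.

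**Figure D2:**
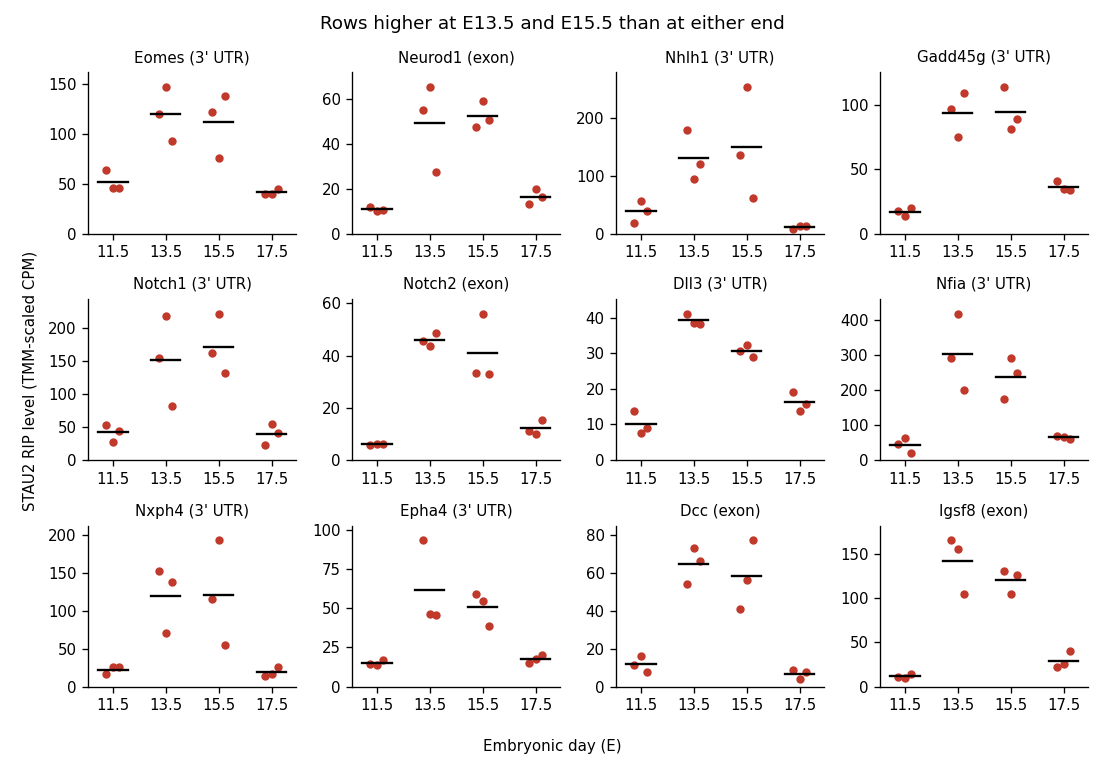
STAU2 RIP level in TMM-scaled CPM by embryonic day for 12 peaked rows, with 1 point per library (3 per stage) and a bar at the mean. In all 12 the 6 middle points lie above the 6 end points. By their means, Nhlh1 and Dcc are examples of rows lowest at E17.5. Neurod1, Notch2, Dll3, Gadd45g and Igsf8 are examples of rows lowest at E11.5.

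Of 21 listed Notch pathway genes 12 were tested, 3 were peaked (Notch1, Notch2 and Dll3) and none dipped, with a median of 0.69. Notch1, the main receptor of cortical radial glia, measured 52.7, 27.7 and 44.7 CPM at E11.5, 154, 217 and 81.9 at E13.5, 161, 221 and 131 at E15.5, and 23.2, 54.6 and 40.4 at E17.5 (chr2:26459412-26459898, called 3' UTR in the table and coding exon in GENCODE). The 2 ends were alike in range, and the middle libraries lay 3.84-fold above E11.5 and 4.08-fold above E17.5 (adjusted p = 0.000553 and 0.000484). Notch2 rose further from E11.5, with 5.89, 6.08 and 6.01 CPM there, 45.7, 43.7 and 48.7 at E13.5, 33.4, 56 and 33 at E15.5, and 11.1, 10.1 and 15.3 at E17.5 in an exon (chr3:98146920-98147230). Its log2 change was 2.85 ± 0.36 (SE) against E11.5 and 1.83 ± 0.32 against E17.5 (adjusted p = 2.84e-06 and 0.000184).

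Dll3, a divergent Delta ligand that acts inside the cell, measured 13.8, 7.6 and 9.02 CPM at E11.5, 41.1, 38.5 and 38.1 at E13.5, 30.7, 32.2 and 29 at E15.5, and 19, 13.9 and 15.7 at E17.5 in its 3' UTR row (chr7:28293621-28294025), whose TGTACATA is printed above. The middle stages were 3.38-fold above E11.5 and 2.14-fold above E17.5 (adjusted p = 0.000222 and 0.00804), and its second row was peaked too. Hes5, a direct target of Notch, had means of 16.1, 10.7, 7.88 and 5.13 CPM and passed neither contrast (adjusted p = 0.0647 and 0.0766). Notch3 (27.8, 38.8, 28.1 and 9.72 CPM) and Rbpj, the pathway's DNA-binding partner (68, 62.2, 64.4 and 22.5 CPM), passed against E17.5 only. Numb (14.7, 12.9, 10.3 and 8.41 CPM), an inhibitor of Notch, passed neither.

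Radial glia genes as a list had 2 peaked genes of 15 tested, the same Notch1 and Notch2, with a median of 0.56. Pax6, the factor that specifies cortical radial glia, measured 57.5, 170 and 72.9 CPM at E11.5, 112, 207 and 111 at E13.5, 90.2, 294 and 66.2 at E15.5, and 25.5, 63.7 and 37.7 at E17.5. Every middle library lay above every E17.5 library while E11.5 overlapped both, and only the contrast with E17.5 passed (adjusted p = 0.00697, against 0.369 for E11.5). Sox2, a stem cell factor, had means of 22.9, 22.4, 13.1 and 7.85 CPM and also passed against E17.5 only (adjusted p = 0.0369). Ccnd2, the cyclin whose RNA is carried into the basal process of radial glia, was the 1 peaked gene of 13 cell cycle genes. Its 5' UTR row measured 105, 93.1 and 97.4 CPM at E11.5, 393, 361 and 185 at E13.5, 126, 311 and 130 at E15.5, and 26, 45.4 and 51.7 at E17.5 (chr6:127150675-127151042), but it shares its merged peak with a row on the opposite strand. The middle lay above both ends in every library (adjusted p = 0.0101 against E11.5 and 5.86e-05 against E17.5). The cell cycle list as a whole had a median of -0.80 against E11.5, 1.68 against E17.5 and 0.39 against both, with 6 genes lower than at E11.5 and 10 higher than at E17.5.

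Of 21 axon guidance genes tested, 5 were peaked (Dcc, Efnb1, Epha4, Plxna2 and Sema5b) and 1 was dipping (Efna5), with a median of 0.90. Dcc, the netrin receptor, measured 7.89 to 16 CPM at E11.5, 54.2, 73.2 and 66 at E13.5, 41, 56.1 and 77.1 at E15.5, and 9.07, 3.98 and 7.55 at E17.5 in an exon on chromosome 18 (start 71299217, end 71299533). It was 5.19-fold above E11.5 and 8.87-fold above E17.5 with no overlap (adjusted p = 4.67e-05 and 3.32e-06). Epha4, an ephrin receptor, measured 14.4, 14.1 and 16.9 CPM at E11.5, 93.3, 46.3 and 45.6 at E13.5, 59.3, 54.5 and 38.4 at E15.5, and 15.1, 17.4 and 20 at E17.5 (chr1:77388363-77388679). The lowest middle library, 38.4, was above the highest end library, 20, and the changes were 1.89 ± 0.35 (SE) and 1.68 ± 0.33 (adjusted p = 0.000243 and 0.000728).

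Plxna2, a semaphorin receptor, was 10.6-fold above E11.5, where it measured 1.18, 1.9 and 5.26 CPM, and 2.35-fold above E17.5, where it measured 11.3, 13.7 and 12. Its middle libraries ranged from 22.1 to 41.7 CPM, but without E17.5 replicate 1 the larger adjusted p was 0.0556. Efnb1, an ephrin ligand, had means of 51.5, 126, 94.0 and 25.7 CPM, and its highest E11.5 library (70.3) overlapped its lowest middle library (70.2). Without E11.5 replicate 1 or replicate 3 its larger adjusted p was 0.0538 or 0.1. Efna5, another ephrin ligand, dipped in its 5' UTR row at 22.6, 2.56, 2.03 and 4.67 CPM, so that E17.5 itself lay far below E11.5.

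Of 11 deep-layer genes 2 were peaked, Nxph4 and Sox5, and none dipped (median 0.65). In the middle 8 were higher and 2 lower than at E11.5. Against E17.5, 2 were higher in the middle and 4 lower, with a list median of -0.06. Nxph4, a neurexophilin secreted by layer 6b neurons, measured 16.2, 25.5 and 25.6 CPM at E11.5, 152, 70.6 and 138 at E13.5, 115, 193 and 54.6 at E15.5, and 14.8, 16.8 and 26.1 at E17.5 in the 3' UTR row whose helix is printed above (chr10:127525466-127526120). Middle and end libraries did not overlap, and the fold was 5.39 against E11.5 and 6.26 against E17.5 (adjusted p = 0.000128 and 6.95e-05). Sox5, a factor that sets deep-layer identity, had means of 17.1, 59.0, 65.7 and 30.7 CPM with a changed call when a library was left out. Its larger adjusted p was 0.0586 with E13.5 replicate 1 left out, and 0.0997 and 0.0972 with E17.5 replicates 1 and 2 left out.

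Tbr1, a factor of layer 6 neurons, had means of 51.6, 112, 120 and 105 CPM: it rose from E11.5 (log2 1.17, adjusted p = 0.0054) and did not pass against E17.5 (log2 0.14, adjusted p = 0.756). Among 7 newborn neuron genes Nrn1 and Plxna2 were peaked, with a list median of 1.55. Nrn1 (neuritin) had means of 24.6, 119, 91.0 and 50.9 CPM, shares its peak with an opposite-strand row, and lost its call in 5 of the fits that leave out a library. Its larger adjusted p became 0.0658 and 0.0757 with replicates 1 and 3 of E13.5 left out, 0.0665 with replicate 3 of E15.5 left out, and 0.213 and 0.0713 with replicates 2 and 3 of E17.5 left out. Neurod6, a factor of migrating projection neurons, had means of 18.9, 752, 972 and 779 CPM and did not pass against E17.5 (adjusted p = 0.791). Of 7 upper-layer genes none was peaked or dipping (median 0.28). Of 18 mature neuron and synapse genes none was peaked and 1 dipped (median 0.32), 13 were higher in the middle than at E11.5 and 14 lower than at E17.5.

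Other named peaked rows belong to genes of varied function. Nfia, a factor that drives gliogenesis and the layering of neurons, measured 46.3, 61.9 and 21.4 CPM at E11.5, 292, 419 and 201 at E13.5, 176, 293 and 248 at E15.5, and 70, 65.3 and 60.7 at E17.5 in its 3' UTR row (chr4:98111540-98111856), and its exon row was peaked as well. The lowest middle library (176) was above the highest end library (70), with changes of 2.64 ± 0.39 (SE) and 2.04 ± 0.37 (adjusted p = 2.1e-05 and 0.000291). Igsf8, an immunoglobulin-domain membrane protein, measured 11.2, 9.5 and 14.7 CPM at E11.5, 165, 155 and 104 at E13.5, 130, 104 and 126 at E15.5, and 22.3, 25.7 and 40.3 at E17.5 (chr1:172318227-172318631). It rose 11-fold from E11.5 and lay 4.42-fold above E17.5.

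Tmem176b, a membrane protein, measured 18.3, 12.2 and 13.9 CPM at E11.5, 99.9, 115 and 50.1 at E13.5, 94.2, 94.1 and 78.6 at E15.5, and 10.4, 25.3 and 11.8 at E17.5 (chr6:48833706-48834110), a rise of 5.97-fold and a fall of 5.6-fold with no overlap. Apcdd1, an inhibitor of Wnt signalling, had means of 9.49, 50.3, 40.6 and 7.74 CPM. Celsr1 and Ptk7, 2 planar cell polarity proteins, had means of 1.53, 22.4, 25.7 and 6.31 CPM and of 11.1, 45.1, 39.6 and 11.3 CPM, and all 4 tested rows of Ptk7 were peaked. Ltbp3, which tethers latent TGF-beta, had means of 2.35, 16.7, 18.5 and 4.21 CPM. Cachd1, Dusp14 (a phosphatase of MAP kinases) and Pxylp1 (a phosphatase in proteoglycan synthesis) were likewise named from the rows without overlap. Their larger adjusted p-values were 0.000102, 0.000624 and 0.000351. Ier2, an immediate early gene, had means of 8.74, 24.0, 20.3 and 9.47 CPM with overlap, and lost its call without E11.5 replicate 1 or 3, E13.5 replicate 1, or E17.5 replicate 2 or 3 (larger adjusted p from 0.0519 to 0.126).

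By the smaller of both changes, the 2 rows with the largest peaks among all 203 were those of Ttr, the transthyretin gene that marks the choroid plexus, and the peak stood at E13.5. Its exon row measured 5.3, 3.8 and 3.76 CPM at E11.5, 299, 367 and 361 at E13.5, 76.3, 34.3 and 80.1 at E15.5, and 2.02, 1.09 and 0.786 at E17.5. The E13.5 libraries lay far above the E15.5 libraries, and both lay above the ends. In the fitted contrasts, which average the 2 middle stages on the log2 scale, the middle was 34.0-fold above E11.5 and 112-fold above E17.5 (adjusted p = 2.39e-08 and 7.82e-09). These folds are not ratios of mean CPM. Otx2, the only other choroid plexus gene of 8 listed with a tested row, had means of 9.45, 1.81, 0.366 and 0 CPM, lower in the middle than at E11.5, and the list's median was 3.44. Going through the 4 stages in order of age, the summed level of the 2 genes ranged over 9.77 to 16.7, 301 to 370, 34.6 to 80.4 and 0.786 to 2.02 CPM, and the part of choroid plexus tissue in these values was not tested.

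Dcn, decorin, a proteoglycan of meninges and connective tissue, was likewise highest at E13.5. Its 3' UTR row measured 2.65, 3.04 and 4.13 CPM at E11.5, 48.7, 34.9 and 45.8 at E13.5, 6.86, 4.67 and 3.9 at E15.5, and 0.672, 0.181 and 0.629 at E17.5 (chr10:97517586-97518068), and an E15.5 library (3.9) lay below an E11.5 library (4.13). It was the 1 peaked gene of 11 meninges and mesenchyme genes, of which 9 were lower in the middle than at E11.5 and 9 higher than at E17.5 (medians -1.94 and 4.32, and 1.23 against both). In the same order of age their summed level ranged over 2130 to 4500, 507 to 789, 93.7 to 126 and 13.8 to 20.8 CPM, and Lum was at 0 at E17.5. Erythroid genes (2 of 13 tested, both lower than at E11.5 and none peaked or dipping, median -1.45) summed to 28.6 to 33 CPM at E11.5 and to at most 1.02 CPM later, and vascular and microglial genes (6 of 16 tested, none peaked or dipping, median 0.83) to 29.7 to 49, 37.1 to 62.5, 26.6 to 29.3 and 15.3 to 16.5 CPM. The part of these tissues in the peaked and dipping calls was not tested.

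Dipping rows were led by Mkx, a homeobox factor of tendon and muscle precursors. Its 3' UTR row on chromosome 18 (start 6936039, end 6936726) measured 17.1, 15.6 and 17.3 CPM at E11.5, 2.78, 1.59 and 1.41 at E13.5, 1.47, 0.686 and 0.111 at E15.5, and 8.9, 15.4 and 10.4 at E17.5. Both ends lay far above the middle, 13.7-fold at E11.5 and 9.47-fold at E17.5 (adjusted p = 3.98e-07 and 3.29e-06). Fblim1, an adaptor at cell-matrix junctions, measured 18, 6.84 and 20.7 CPM at E11.5, 1.25, 3.04 and 2.3 at E13.5, 1.47, 1.37 and 1.34 at E15.5, and 6.55, 15 and 20.9 at E17.5 (chr4:141577717-141577861). Its ends were 8.61-fold and 8.02-fold above the middle without overlap (adjusted p = 4.42e-06 and 6.12e-06). Mkx and Fblim1 kept their calls under every alternative that was run on named rows, both scalings by a total included.

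Olig2, the factor that specifies oligodendrocyte precursors and ventral progenitors, was low at E11.5, lower in the middle and highest at E17.5. Its 3' UTR row (chr16:91228214-91228530) measured 2.65, 7.22 and 2.26 CPM at E11.5, 0.418, 1.3 and 0.767 at E13.5, 0.49, 0.961 and 1 at E15.5, and 14.8, 14.3 and 8.18 at E17.5. The middle was below E11.5 by 2.25 ± 0.48 on the log2 scale (SE, adjusted p = 0.00111) and below E17.5 by 3.88 ± 0.41 (adjusted p = 5.01e-07), but the first call was lost under scaling by either total (larger adjusted p = 0.0682 and 0.0819). Of 7 glia genes (median 0.30) Olig2 was the 1 that dipped and Nfia the 1 that peaked. Sox10, a factor of the same lineage, had means of 0.379, 0, 0.583 and 8.24 CPM and passed against E17.5 only.

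Dlx2, which directs interneuron precursors of the ventral forebrain, was dipping in all 3 of its rows. The 3' UTR row (chr2:71543537-71543941) measured 48.9, 87.8 and 40.2 CPM at E11.5, 10.2, 15 and 8.82 at E13.5, 22, 38.1 and 24.1 at E15.5, and 61.5, 70.4 and 33.8 at E17.5. The low point was E13.5, and 1 E15.5 library (38.1) overlapped 1 E17.5 library (33.8). The ends were 3.3-fold and 3.09-fold above the middle (adjusted p = 0.00035 and 0.000742), and the call was lost under scaling by either total (larger adjusted p = 0.212 and 0.235). Of 6 interneuron genes (median -0.51) Dlx2 was the 1 that dipped by its highest row. Dlx5 had means of 16.9, 8.08, 24.9 and 37.4 CPM in that row and a dipping second row, Gad1, the enzyme that makes GABA, rose from 1.67 to 23.4 CPM, and Sst, an interneuron neuropeptide, had means of 2.54, 281, 252 and 273 CPM.

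**Figure D3:**
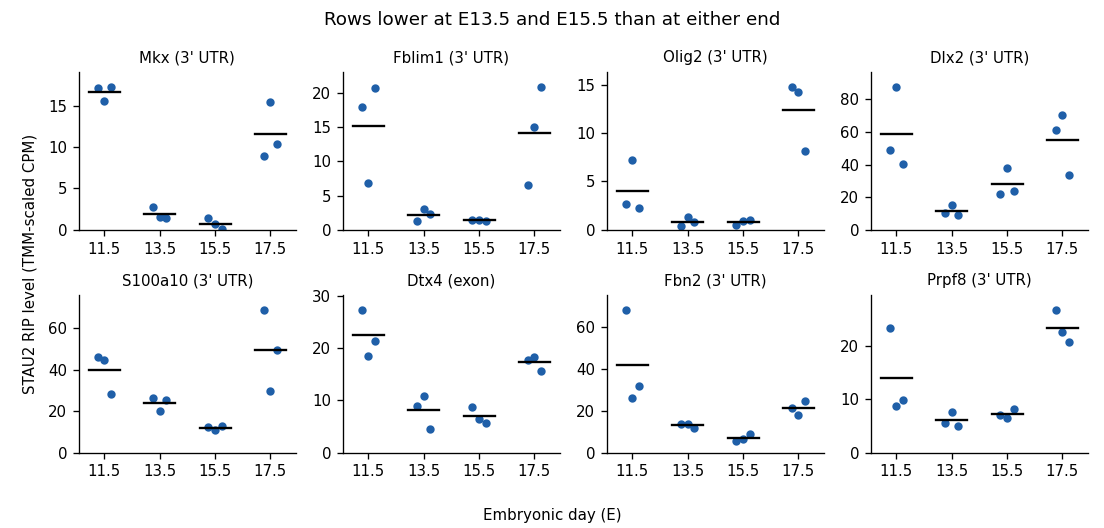
STAU2 RIP level in TMM-scaled CPM by embryonic day for 8 dipping rows, with 1 point per library (3 per stage) and a bar at the mean. The middle points lie below the end points in all panels but Dlx2, where an E15.5 library at 38.1 CPM is above an E17.5 library at 33.8 CPM.

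The remaining named dipping rows changed less. S100a10, a calcium-binding family member that binds annexin, measured 46.3, 44.8 and 28.2 CPM at E11.5, 26.3, 20 and 25.6 at E13.5, 12.4, 10.8 and 12.9 at E15.5, and 69, 29.7 and 49.5 at E17.5. Dtx4, an E3 ligase of the Deltex family, measured 27.4, 18.6 and 21.4 CPM at E11.5, 8.91, 10.9 and 4.6 at E13.5, 8.69, 6.45 and 5.68 at E15.5, and 17.8, 18.4 and 15.7 at E17.5. Fbn2, a fibrillin of elastic microfibrils, had means of 42.2, 13.1, 7.12 and 21.4 CPM. These 3 kept their calls whichever library was left out, but S100a10 and Dtx4 lost them under both scalings by a total (larger adjusted p up to 0.964 and 0.368) and Fbn2 under 1 of them (0.0789).

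Another 10 dipping rows named by the same rule depended on single libraries. Tppp3, a tubulin-binding protein, gave a larger adjusted p of 0.0747 without E11.5 replicate 3 and 0.181 without E17.5 replicate 3. Prpf8, the core splicing factor, gave 0.36 without E11.5 replicate 1, Fam174b gave 0.119 without E11.5 replicate 2, and Myl9, a myosin light chain, gave 0.145 without E17.5 replicate 3. Pdxk, pyridoxal kinase, gave 0.0689 and 0.0531 without E11.5 replicates 2 and 3. Magohb, an exon junction protein, gave 0.258, 0.0695, 0.0609 and 0.107 without E11.5 replicate 3, E13.5 replicate 1, E15.5 replicate 2 and E17.5 replicate 2. Acadl, a mitochondrial dehydrogenase of fatty acids, gave 0.0576 without E13.5 replicate 3 and 0.0668, 0.0811 and 0.0716 without E17.5 replicates 1, 2 and 3. Smim10l2a gave 0.0541 to 0.245 without E11.5 replicate 1, E13.5 replicates 1 and 2 or E15.5 replicates 1 and 2. Camk2a, a synaptic kinase whose RNA is known in dendrites, gave 0.0679 to 0.108 without any of E11.5 replicates 1 to 3, E13.5 replicates 1 and 3 or E15.5 replicates 1 and 3, and Cox18, an assembly factor of respiratory complex IV, gave 0.0527 to 0.116 without 7 of the 12 libraries (E11.5 replicate 2, E13.5 replicates 1 and 2, E15.5 replicates 2 and 3, E17.5 replicates 1 and 2). Over all alternatives the larger adjusted p of these 10 rows reached between 0.145 and 0.792.

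Between E13.5 and E15.5, 4 peaked rows passed (1.97%), all lower at E15.5 (both Ttr rows, Dcn and Slc22a6), and 1 dipping row passed (1.32%), higher at E15.5 (a Dlx2 exon). Over all rows the share was 0.319%, and the difference between these shares was not tested. The highest stage was E13.5 for 116 peaked rows and E15.5 for 87, and the lowest was E13.5 for 33 dipping rows and E15.5 for 43. The ends of the peaked rows differed more often: 46 were higher at E17.5 than at E11.5 and 26 lower, 35.5% of the 203, and of the dipping rows 7 were higher and 9 lower, 21.1% of the 76. The classes require both ends to lie on one side of the middle, so these shares are not comparable with the 51.9% of all rows and are read no further.

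By location, dipping rows were called 3' UTR in 51 of 76 (67.1%), exon in 17, 5' UTR in 5 and intron in 3, while 47.1% of all tested rows were called 3' UTR. Peaked rows were called 3' UTR in 92 (45.3%), exon in 89 (43.8%), 5' UTR in 19 and intron in 3. Their median mean level was 19.4 CPM in peaked and 10.3 CPM in dipping rows, against 12.8 CPM over all rows, so the depth behind the classes was unequal, and its part in the locations was not tested. A row on the opposite strand of the same merged peak accompanied 9 peaked and 5 dipping rows, against 10.3% of all rows, and without them 194 and 71 rows remained.

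Several rows of 1 gene share a transcript and are not independent, but they show whether a call is local. At 41 genes 2 or more rows were peaked: Dpy19l1 in 4 of 5 tested rows, Ptk7 in 4 of 4, Syne2 in 4 of 11, and Mfap2 and Sez6 in 3 of 3. The genes with a peaked row had 127 further tested rows, of which 107 (84.3%) changed in the same 2 directions, passing or not, against 18.1% of all rows. At 6 genes 2 or more rows dipped, among them Cpne2 and Dlx2 in 3 of 3, and 55 of 72 further rows (76.4%) changed the same way, against 15.7% of all rows.

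The remaining lists had few or no members in either class, as the plot of list medians shows. By their highest rows, no tested gene was peaked or dipping in the early neuroepithelium (5 genes, median -0.24), Cajal-Retzius (4, -0.08), motor and microtubule transport (15, 0.07), RNA granule (20, 0.08), chromatin (28, 0.21), ribosomal protein (38, -0.17), mitochondrial respiration (54, -0.15) and cholesterol synthesis (7, -0.32) lists. Among all 134 tested rows of chromatin genes 4 were peaked, none of them a highest row, against 1.44% of all rows tested. Of 6 immediate early and hypoxia genes 1 was peaked, Ier2 (median 0.18). The negative medians turn positive under scaling by a total, and relative to the median of all rows they stay below it (for ribosomal proteins -0.20 under TMM, -0.19 and -0.20 under the totals). The early neuroepithelium list fell through the series, at -2.63 against E11.5 and 2.14 against E17.5, and no member was lower in the middle than at E17.5. Stau2 itself had means of 26.7, 30.6, 29.1 and 28.8 CPM from E11.5 to E17.5, with overlap between all stages and no call (adjusted p = 0.752 and 0.929). Its paralog Stau1 passed neither contrast (adjusted p = 0.716 and 0.274).

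**Figure D4:**
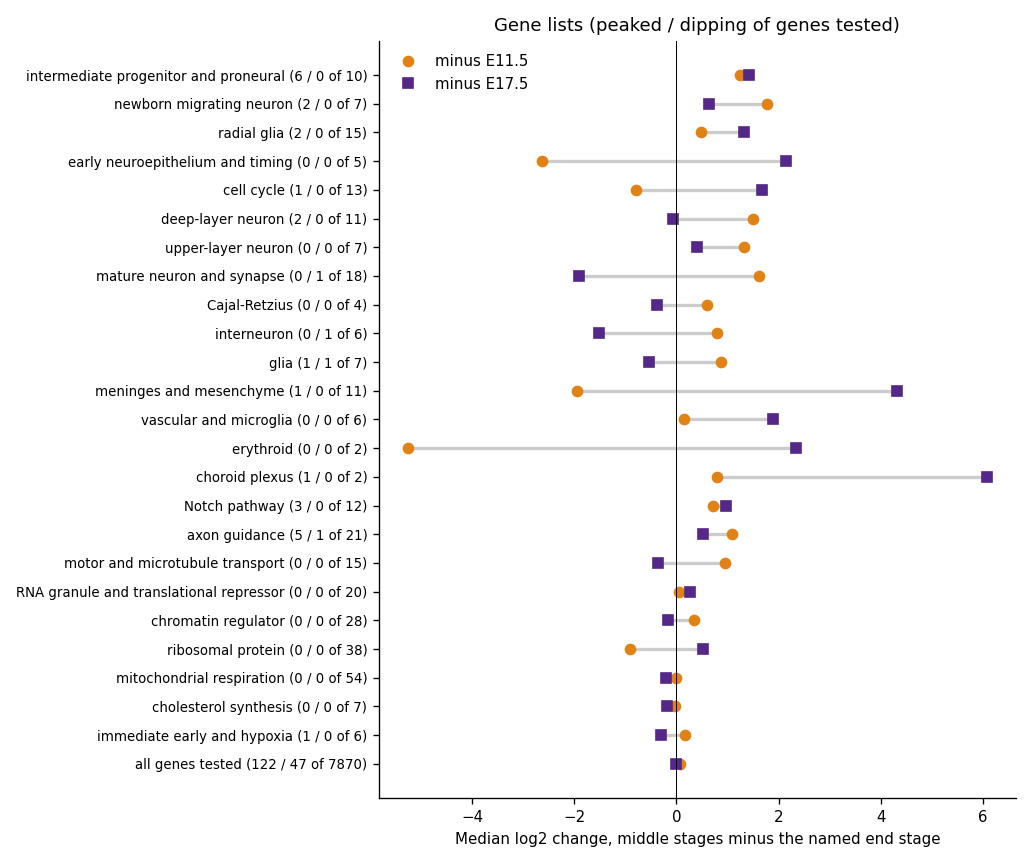
Median log2 change of each gene list in the middle stages minus E11.5 (circles) and minus E17.5 (squares), with each gene given by its highest row. Both medians exceed 1 in the intermediate progenitor list alone. Many lists have medians of opposite sign, among them the meninges, erythroid, early neuroepithelium, cell cycle, interneuron and mature neuron lists. The numbers in brackets are peaked and dipping genes of genes tested.

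At the threshold, the last peaked row inside was Nucb1 (larger adjusted p = 0.0499, changes 0.84 and 0.93) and the first outside was Ctcflos (0.0501, changes 2.61 and 1.23). The last dipping row inside was Gsto1 (0.0495, changes -0.84 and -1.27) and the first outside was Dnajb4 (0.0504, changes -0.83 and -1.1). A row just outside can therefore have changed more than one inside.

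**Figure D5:**
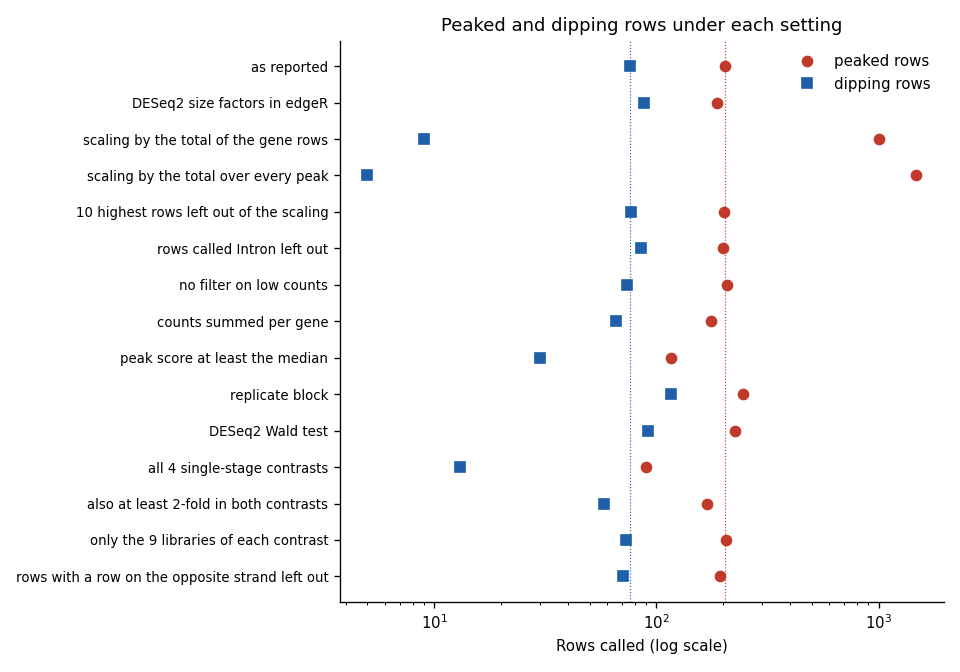
Number of peaked (circles) and dipping (squares) rows under each setting, on a log axis, with dotted lines at the 203 and 76 rows reported. The scalings by a library total move the counts furthest, to 1004 and 1479 peaked and to 9 and 5 dipping rows.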

How the data were processed

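The authors deposited whole-number counts per merged peak and strand, with a peak score for each merged peak. Per the submitters' processing notes HOMER 4.10 and the builds mm10 and GRCm38 were used, and the sources used here name no aligner or counting settings. Each count column is named by stage and replicate, a name shared in the labels by an immunoprecipitation and its input, and was read as the immunoprecipitation because the table lists peaks. The 4513 intergenic rows and 170 other rows without a symbol were left out. They held 53.7% to 65.2% of a library's total over every peak, in which each intergenic count was halved. The same total served for the scaling over every peak. Gene rows totalled 4685708 to 6372132 counts per library. The fit used edgeR 4.0.16 (R 4.3.3) with TMM, filterByExpr, 1 mean per stage and 8 residual degrees of freedom, and the biological coefficient of variation was 0.342. SE is the log2 change over the square root of F. Whether libraries come from different animals is unknown from the labels, and p-values cover only the spread between libraries, which may be technical. Alternatives covered scaling, filters, DESeq2 1.42.0, gene sums, peak score, definitions, a replicate block and each library left out. Base composition was not compared between classes, since too few rows had a window. The procedure was tested on simulated data, where it missed most of the changed rows and made no false call. All other simulated rows were level over the stages, while in these data 51.9% of rows differed between E17.5 and E11.5. Neither simulated result therefore carries over to the calls here, and a row or list without a call is not shown to be level.

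Named genes were the first 15 in each direction, by the smaller of both changes, among rows without overlap and with at least 10 CPM on the high side, up to 4 called genes per list, and 11 fixed genes (Stau2, Stau1, Eomes, Neurog2, Neurod1, Pax6, Sox2, Tbr1, Hes5, Dll1, Bcl11b), while 1 more gene of that fixed set is not reported here; unnamed gene models were skipped. A gene in a list is represented by its row with the highest mean. The members, lists and tests were chosen with earlier results of these data known.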

Additional observations from a re-analysis of the deposited data

Results flagged for a closer look

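The 2 middle stages differed from each other, by edgeR's quasi-likelihood test of E15.5 minus E13.5, at 5 peaked or dipping rows, so that their contrasts with the same end stages differ. Ttr was lower at E15.5 by a log2 change of -2.53 in its 3' UTR row (adjusted p = 0.00173) and -2.43 in its exon row (adjusted p = 0.00197). Dcn changed by -3.06 (adjusted p = 1e-04) and Slc22a6, an organic anion transporter, by -3.2 (adjusted p = 0.0292), where its means were 6.08 CPM at E13.5 and 0.631 at E15.5. Dlx2 changed the other way in its exon row that starts at 71545344, by 2.08 (adjusted p = 0.0292), from 2.29 to 9.63 CPM. For these 5 rows the middle mean stands for 2 unlike stages.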

How the results depend on the processing

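Limits. The extent of both classes depends on TMM: scaling by totals gave 1004 and 1479 peaked rows in place of 203, and removed most dipping calls. E11.5 stands apart from the other stages in composition. Depth limits rows near 1 CPM, where a library holds a few counts.

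With library totals of gene rows as the scale there were 1004 peaked and 9 dipping rows, 6710 rows differed between the middle and both ends and 9816 between the middle and E11.5. Under the total over every peak these were 1479, 5, 8660 and 9861. With rows of at least the median peak score, 7097 rows were tested, and 116 were peaked, 30 dipping, 643 called against both ends, 2482 against E11.5, 2089 against E17.5, 28 between E15.5 and E13.5, and 3867 between E17.5 and E11.5. Requiring all 4 single-stage contrasts left 90 peaked and 13 dipping rows. Counts summed per gene gave 4546 genes of 7873 between E17.5 and E11.5, and DESeq2's Wald test gave 100 rows between E15.5 and E13.5. The replicate block gave 116 dipping, 244 peaked and 75 rows between E15.5 and E13.5. Replicate numbers were not taken to pair the samples, which would have needed a correlation above 0.1 in every same-number pair of libraries. It was above 0.1 in 12 of 18 such pairs (from -0.198 to 0.524, against -0.447 to 0.531 in the other pairs), so pairing in part is possible. The score filter tests fewer rows by construction, and for the other alternatives the cause was not tested.

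Leaving out 1 library gave 137 to 204 peaked rows, 51 to 102 dipping rows, 992 to 1206 rows against both ends, 3276 to 4462 against E11.5, 2927 to 4173 against E17.5 and 6295 to 7469 between E17.5 and E11.5. Between E15.5 and E13.5 it gave 19 to 58 rows, against 45 with all libraries: 25 and 23 without E13.5 replicates 1 and 3, and 19 and 25 without E15.5 replicates 1 and 2. These fits kept 131 to 179 of the 203 peaked calls and 47 to 65 of the 76 dipping calls, and the other rows they called were new. Of 29 named peaked rows 5 lost their call without some library and none under the total scalings, and of 17 named dipping rows 10 and 15 did. The total scalings shift the contrasts upward, which favours peaked calls, so keeping them there is no sign of stability. None of these 46 named rows changed direction, but all had been chosen for passing both contrasts with the same sign. A reversal was therefore unlikely from the start, and its absence shows little. Among rows with no call the sign of the middle minus both ends turned for Hes5 (-0.02 with DESeq2 size factors and with DESeq2, 0 without intron rows, -0.01 with the block, -0.14 to 0.17 without 1 library), Stau1 (0.53 and 0.67 under the totals, -0.34 to 0.05 without 1 library) and Stau2 (-0.2 summed per gene, -0.05 to 0.2 without 1 library). Base composition over whole intervals is not given, because that check is void.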

Other observations

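Rows outside the naming rule, chosen after their values were seen, add to the gene groups above. Sez6, a seizure-related membrane protein, was lowest at E11.5: its exon row had means of 5.46, 204, 226 and 68.4 CPM from E11.5 to E17.5. Nfib, the relative of Nfia, was peaked in 2 of 6 rows, the higher with means of 41.8, 577, 510 and 257 CPM. The vesicular glutamate transporter Slc17a7 was peaked in both of its rows, the higher with means of 17.6, 56.4, 64.0 and 26.0 CPM, and Slc17a6 in 1 row with 6.48, 23.4, 18.8 and 8.22 CPM. Igfbpl1, a secreted binding protein, had the highest level of any peaked row, with means of 146, 1067, 1339 and 340 CPM. Six3, a homeobox factor of the anterior forebrain, dipped with means of 42.2, 1.24, 1.88 and 5.26 CPM, and its call held under both scalings by a total, as did those of Arhgap28, Sgf29, Mkx and Fblim1.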
